A study of Amolops torrentis with 15 samples.

Results

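Female torrent frogs, Amolops torrentis, gave whole brains after an audiovisual stimulus, and these were compared with whole brains from the dark contrast. Each group had 3 libraries, chosen by the stimulus given in their labels, so 6 of the 15 libraries of the series were compared across all annotated features. The title of the series names acoustic and visual sexual cues. The other 9 libraries, 3 each from a blank contrast, a visual stimulus and an acoustic stimulus, were used to estimate the spread and to place each level. The labels give no age and do not say what the frogs in the dark or blank contrast saw or heard, how long the stimulus lasted, when the brains were taken, or whether a library holds 1 frog or a pool. The design states sequencing in triplicate, so p-values measure the spread between these libraries, which may be in part technical.

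Male frogs of noisy streams can court with calls and with visible movements. In the frog brain, sound is relayed through the hindbrain to the auditory midbrain, the torus semicircularis, and vision reaches the optic tectum above it, while hypothalamic and preoptic cells link such input to hormones and to mating behaviour. A neuron that fires switches on immediate early genes such as fos and egr1 within minutes, and these encode transcription factors that act on slower genes of synapses and metabolism. In a whole brain library, fewer cells of a type and less RNA per cell cannot be told apart.

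The features are numbered clusters, each with an estimated read count, an FPKM value (fragments scaled by feature length and library depth) and, for 41.8% of them, a gene symbol from the best protein match. The 6 libraries held 12071194 to 16829356 reads assigned to features. Levels are given here in CPM, reads scaled to a common library size by the TMM method, in the order of libraries 1, 2 and 3 of a group, and a log2 fold change above 0 means a higher level in audiovisual brains. Of 44351 features, 42619 had a mean of at least 1 FPKM over the 15 libraries and were tested. The lowest FPKM of any feature in any library was 0.31, so genes undetected in some libraries are not analysed here. As markers of brain tissue, the synaptic gene SNAP25 of neurons lay between 1928 and 2247 CPM in all 15 libraries, and the myelin gene MBP of oligodendrocytes lay between 4900.1 and 8699.9 CPM. All 3 microglial markers sought (CSF1R, C1QA and AIF1), the astrocyte marker GFAP and the photoreceptor markers GNAT1, SAG and RBP3 had no tested feature under those symbols.

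No feature passed an adjusted p of 0.05 between audiovisual and dark contrast brains (edgeR quasi-likelihood test adjusted over all features, 0 of 42619, 0%). At an unadjusted p under 0.05 there were 2228 features (5.23%), of which 1133 (2.66%) were higher and 1095 (2.57%) lower in audiovisual brains. The 3 audiovisual and 3 dark contrast libraries did not overlap for 4568 features (10.7%), 2334 of them (5.48%) higher and 2234 (5.24%) lower in audiovisual brains. DESeq2, a second count test run on the same libraries, gave 38 features at an adjusted p under 0.05 (0.103% of the 36819 with an adjusted p), 25 higher and 13 lower, and 25 of them carried a symbol. Features with a symbol, from which the named features and gene lists below are drawn, lay higher more often than lower: of 17950 tested, 54.4% had a log2 fold change above 0 with a median of 0.03, 3.24% were higher and 1.82% lower at an unadjusted p under 0.05, and 6.74% were higher and 3.99% lower without overlap. The features described first are the 15 in each direction with the smallest p among those with a symbol and at least 1 CPM. They were picked by that contrast, so the lack of overlap between the groups in all 30 comes with the choice, and their values are a description. The DESeq2 set included 14 of the 15 higher features and 8 of the 15 lower ones.

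**Figure D1:**
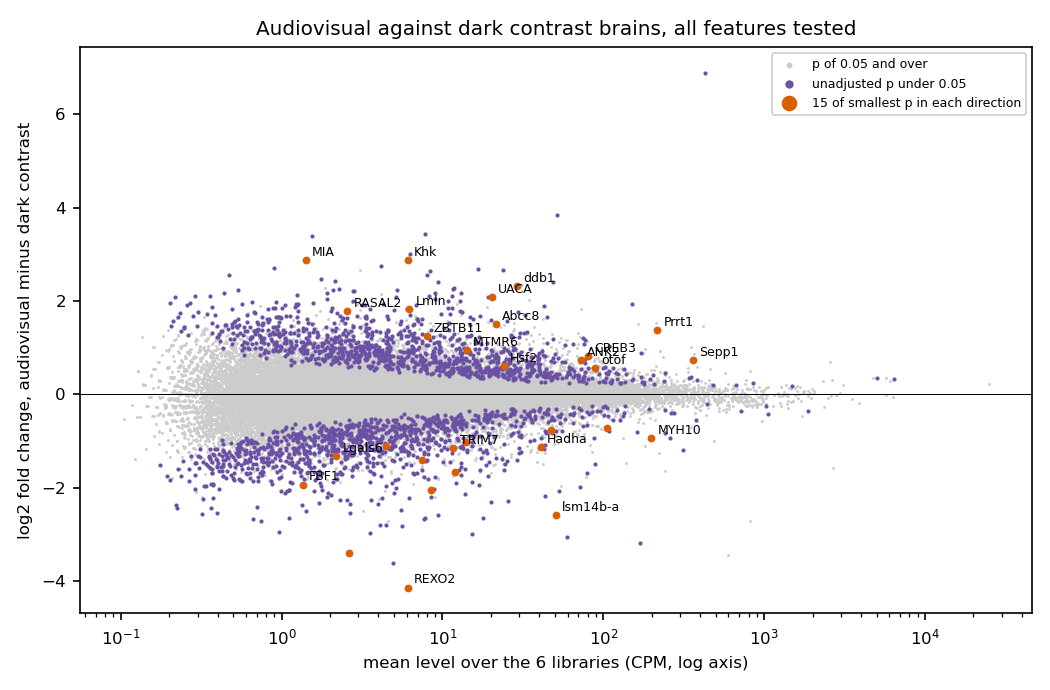
Each point is 1 of the 42619 features, with its mean level over the 6 libraries in CPM on a log axis and its log2 fold change, audiovisual minus dark contrast, from the edgeR fit. Purple points have an unadjusted p under 0.05, orange points are the 15 features with a symbol and the smallest p in each direction, and the highest point is cga, at a log2 fold change of 6.89.

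The lowest p belonged to Khk (Cluster-46846.45080), ketohexokinase, the enzyme that phosphorylates fructose. It lay at 1.35, 1.38 and 1.62 CPM in dark contrast and 13.8, 10.8 and 7.47 CPM in audiovisual. All 3 dark contrast libraries were below every other library of the series, and the audiovisual ones were the highest group (log2 fold change 2.88, with an SE of 0.372, adjusted p = 0.0917 by edgeR). Blank contrast, visual and acoustic brains lay in between, at 5.15 ± 1.65, 4.59 ± 0.317 and 6.37 ± 2.79 CPM (mean ± SD, n = 3). Without audiovisual 3 the log2 fold change was 3.08 at an adjusted p of 0.0483, the one setting of edgeR in which Khk passed. The 2 features of Khk summed to 1.77, 6.96 and 2.43 CPM in dark contrast and 16.3, 13.2 and 11.8 CPM in audiovisual. In the sum, dark contrast 2 was above the visual libraries, at 6.92, 5.73 and 6.09 CPM, so the dark contrast libraries were not all the lowest.

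Of the 15 higher features, 10 had all 3 dark contrast libraries below the other 12 libraries and 1 had the 3 audiovisual libraries above the other 12. Over all features tested these patterns were found for 148 (0.347%) and 89 (0.209%), but the choice by the same contrast favours low dark contrast and high audiovisual libraries, so nothing is read from the difference. Lmln, a metallopeptidase related to leishmanolysin, was at 2.02, 3.65 and 2.51 CPM in dark contrast and 9.75, 6.98 and 12.5 CPM in audiovisual. The dark contrast libraries were the low ones: blank contrast, visual and acoustic brains averaged 9.37, 11.6 and 8.99 CPM (log2 fold change 1.83, with an SE of 0.277, adjusted p = 0.164 by edgeR). CREB3, a transcription factor held in the membrane of the endoplasmic reticulum until it is cleaved, had 67.3, 59.4 and 46.3 CPM in dark contrast and 119, 89 and 97.1 CPM in audiovisual. The groups did not overlap, and dark contrast 3 was the lowest of the 15 libraries (log2 fold change 0.82, with an SE of 0.156, adjusted p = 0.578 by edgeR).

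Sepp1 encodes selenoprotein P, which carries selenium between tissues and is needed by neurons. It was the most abundant of the 15, with 265, 246 and 302 CPM in dark contrast and 374, 434 and 548 CPM in audiovisual. Audiovisual 3 was the highest of the 6 libraries and the groups did not overlap (log2 fold change 0.74, with an SE of 0.149, adjusted p = 0.578 by edgeR). Abcc8 encodes the sulphonylurea receptor subunit of ATP-sensitive potassium channels, which couple a cell's energy state to its excitability. This feature lay at 11, 6.27 and 16.4 CPM in dark contrast and 33.5, 26.1 and 35.2 CPM in audiovisual, with dark contrast 2 the lowest of the 15 libraries (log2 fold change 1.497, SE 0.294).

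Transcription factors, a ubiquitin adaptor, a cell-death gene and a secreted factor completed the set that was low in the dark contrast. Hsf2, a heat shock transcription factor, lay at 18.4, 18.7 and 20.1 against 28.7, 30.4 and 27.4 CPM in dark contrast against audiovisual (log2 fold change 0.60, SE 0.135). ZBTB11, a zinc finger transcription factor, lay at 3.79, 6.13 and 4.38 against 10.3, 11.3 and 12.3 CPM (log2 fold change 1.24, SE 0.245). In both features all dark contrast libraries were below all others, and each is 1 of several features of its symbol, 4 for Hsf2 and 2 for ZBTB11. A feature of ddb1, the adaptor that joins substrates to cullin 4 ubiquitin ligases, lay at 5.82, 12.5 and 10.7 against 38.9, 64.3 and 41.3 CPM (log2 fold change 2.31, SE 0.524). UACA, a coiled-coil protein with ankyrin repeats that takes part in apoptosis, lay at 6.91, 3.58 and 12.7 against 31.7, 41 and 25.7 CPM (log2 fold change 2.09, SE 0.431). MIA, a small secreted protein first found in melanoma, lay at 0.253, 0.344 and 0.405 against 1.82, 1.71 and 3.95 CPM (log2 fold change 2.87, SE 0.552). For MIA the dark contrast values rest on 3, 5 and 5 estimated reads.

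In the other 5 higher features the dark contrast mean was below that of every other group too, but at least 1 library of another group was no higher than the highest dark contrast library. RASAL2, a Ras GTPase-activating protein, was the one with all 3 audiovisual libraries at the top of the 15, at 1.18, 0.964 and 1.3 against 4.34, 3.78 and 3.77 CPM (log2 fold change 1.78, SE 0.369). Prrt1 encodes a transmembrane protein that associates with AMPA-type glutamate receptors. The feature of Prrt1 in the set lay at 85.1, 133 and 141 CPM in dark contrast and 271, 319 and 348 CPM in audiovisual (log2 fold change 1.38, SE 0.306), and the groups were far apart. Otoferlin (otof), the calcium sensor for vesicle release at hair cell synapses that is also made in brain, lay at 66.5, 78.9 and 69.8 against 119.6, 102 and 94.3 CPM (log2 fold change 0.56, SE 0.125). ANK2, the ankyrin of axons, lay at 50.2, 62.8 and 50.4 against 92, 96.5 and 84.2 CPM (log2 fold change 0.74, SE 0.166), and MTMR6, a phosphatase of inositol lipids, at 8.77, 11.6 and 8.43 against 19.7, 21.4 and 14.8 CPM (log2 fold change 0.95, SE 0.213). In these 3 features the lowest audiovisual library was above the highest dark contrast one. The ANK2 feature is 1 of 7 of its symbol, whose summed levels overlapped between the groups, at 473, 532 and 518 against 546, 538 and 517 CPM.

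**Figure D2:**
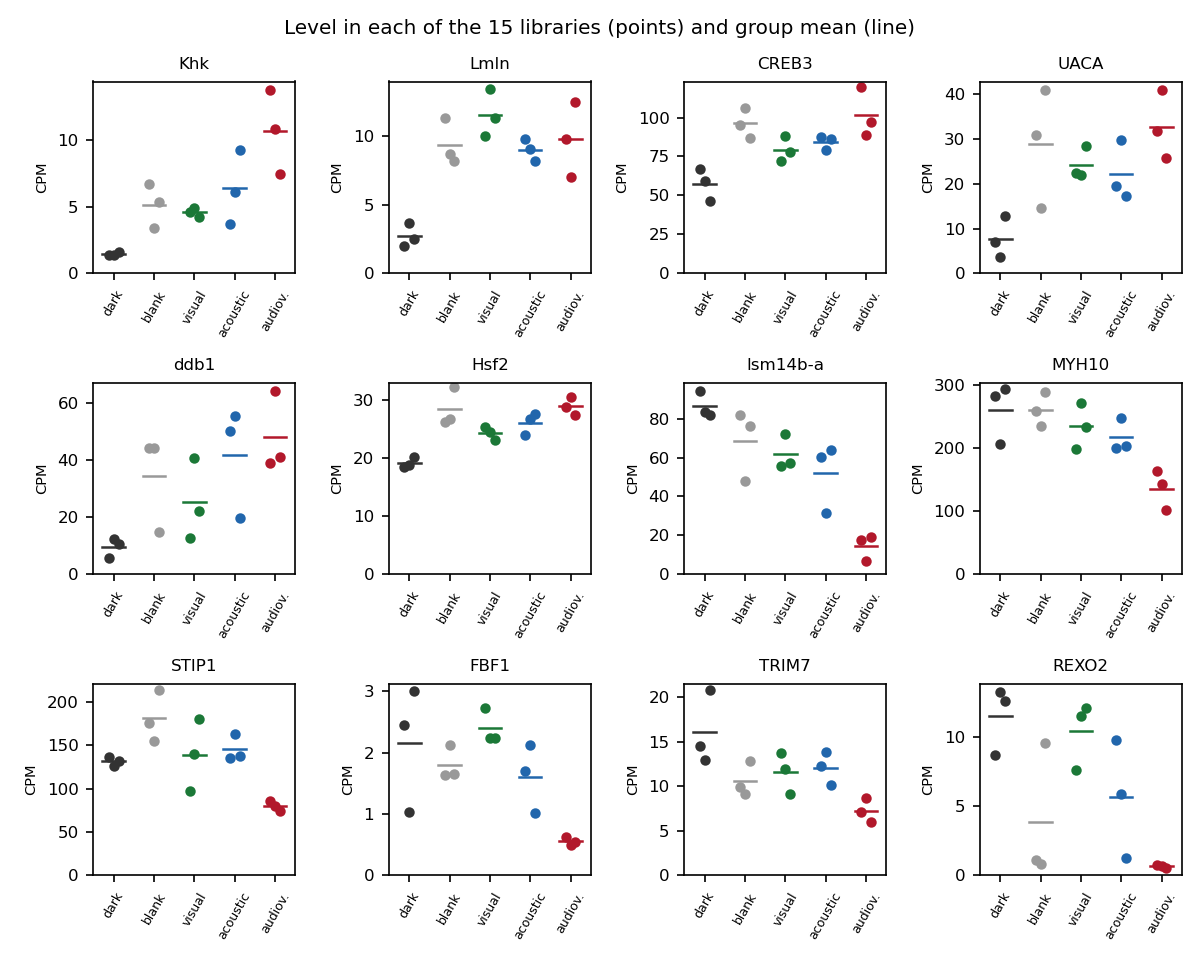
Level in CPM (linear axes from 0) of 12 features in each of the 15 libraries, 1 point per library, with a line at the group mean. Khk, Lmln, CREB3, UACA, ddb1 and Hsf2 have the 3 dark contrast libraries below the other 12, and lsm14b-a, MYH10, STIP1, FBF1, TRIM7 and REXO2 have the 3 audiovisual libraries below the other 12.

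Among the 15 lower features, 7 had the 3 audiovisual libraries below the other 12 (86 of all features tested, 0.202%), and 2 had the 3 dark contrast libraries above the other 12 (113 of all features, 0.265%), patterns that the choice again favours. One feature, lsm14b-a (Cluster-46846.159511), met both. LSM14B is an RNA-binding protein of the granules in which messenger RNA is stored. The feature lay at 94.2, 83.6 and 81.8 CPM in dark contrast and 17.6, 6.77 and 19 CPM in audiovisual, and the audiovisual libraries were well apart from all others (log2 fold change -2.58, with an SE of 0.356, adjusted p = 0.0955 by edgeR). Blank contrast, visual and acoustic brains were at 68.6 ± 18.3, 61.6 ± 8.95 and 51.9 ± 17.6 CPM.

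MYH10, the heavy chain of nonmuscle myosin IIB, which shapes growth cones and dendritic spines, was the most abundant of the lower features, at 282, 207 and 294 CPM in dark contrast and 163, 143 and 102 CPM in audiovisual. All 3 audiovisual libraries were below the other 12, and audiovisual 3 was lowest (log2 fold change -0.94, with an SE of 0.186, adjusted p = 0.578 by edgeR). STIP1 is the co-chaperone that hands proteins from Hsp70 to Hsp90. It was at 137, 126 and 132 CPM in dark contrast and 85.4, 80.01 and 74.7 CPM in audiovisual, with narrow groups far apart (log2 fold change -0.72, with an SE of 0.186, adjusted p = 0.934 by edgeR). Blank contrast brains had the highest mean of STIP1, 182 ± 30.2 CPM.

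REXO2, an exonuclease that clears short RNA in mitochondria, lay at 8.68, 13.2 and 12.6 against 0.755, 0.641 and 0.538 CPM (log2 fold change -4.14, SE 0.89). Its audiovisual libraries were all under 1 CPM, but blank contrast libraries ranged from 0.851 to 9.56 CPM. PISD, which makes phosphatidylethanolamine in mitochondria, lay at 16.9, 7.37 and 17 against 3.46, 2.85 and 3.65 CPM (log2 fold change -2.04, SE 0.481). Hadha, the alpha subunit of the trifunctional enzyme of fatty acid oxidation, lay at 46.5, 59 and 62.5 against 26.7, 19.9 and 30.4 CPM (log2 fold change -1.12, SE 0.247). The groups were apart for both. SLC25A12, the aspartate-glutamate carrier, lay at 59.9, 55.1 and 62.9 against 29.3, 42 and 33.4 CPM (log2 fold change -0.76, SE 0.203), and letm2, of the mitochondrial inner membrane, at 11, 10.9 and 10.5 against 3.4, 6.41 and 2.45 CPM (log2 fold change -1.41, SE 0.351). SCO1, which delivers copper to cytochrome c oxidase, lay at 1.94, 6.89 and 5.51 against 0.315, 0.356 and 0.658 CPM (log2 fold change -3.399, SE 0.855). The SCO1 feature was also under 1 CPM on average in visual brains, at 0.681 CPM.

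FBF1, of the fibres that anchor cilia, lay at 2.44, 1.03 and 2.998 against 0.629, 0.499 and 0.538 CPM (log2 fold change -1.93, SE 0.408). TRIM7, named for a ubiquitin ligase, lay at 14.5, 13 and 20.8 against 7.11, 8.69 and 6.04 CPM (log2 fold change -1.15, SE 0.245). Audiovisual libraries were the lowest of the series for both. AP1M1, a subunit of the clathrin adaptor AP-1, lay at 17.1, 19 and 20.5 against 6.48, 8.83 and 12.6 CPM (log2 fold change -1.02, SE 0.281), and here the dark contrast libraries were above the other 12. The extended synaptotagmin esyt2-b lay at 6.49, 5.85 and 6.08 against 3.84, 1.64 and 2.99 CPM (log2 fold change -1.12, SE 0.3004), RUSC2 at 12.1, 14.9 and 27.7 against 7.36, 3.42 and 6.46 CPM (log2 fold change -1.66, SE 0.453) and the galectin Lgals6 at 3.54, 2.14 and 3.73 against 1.32, 0.926 and 1.49 CPM (log2 fold change -1.31, SE 0.299). Their groups did not overlap, and for RUSC2 visual brains had the highest mean, 21.2 CPM.

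Many symbols stood on several features, and there a difference in 1 feature was often not one of the gene's total. Of the 11 higher features that share a symbol with others, 5 had a summed level over all features of the symbol that differed by under 0.25 on the log2 scale, and 5 kept an unadjusted p under 0.05 in the same direction. For the 12 such lower features the numbers were 6 and 3, and 1 sum lay in the opposite direction. The 5 features of LSM14B summed to 193 ± 7.23 CPM in dark contrast and 187 ± 23.8 CPM in audiovisual (log2 fold change -0.04, SE 0.15). While the feature described above went from 86.5 to 14.4 CPM between the group means, a second went from 48.6 to 103 CPM and another from 10.8 to 21 CPM. The totals of the libraries overlapped between the groups.

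Prrt1 had 2 features, which went from 120.01 to 313 CPM and from 309 to 174 CPM between dark contrast and audiovisual means, and summed to 429 ± 73.1 CPM in dark contrast and 487 ± 45.4 CPM in audiovisual (log2 fold change 0.19, SE 0.125). Hadha summed to 102 ± 5.25 CPM in dark contrast and 91.2 ± 7.39 CPM in audiovisual (log2 fold change -0.16, SE 0.107) and SLC25A12 to 95.4 ± 4.47 CPM in dark contrast and 93.7 ± 1.86 CPM in audiovisual (log2 fold change -0.02, SE 0.0845). In all 3 genes the second feature lay the other way. The sums of PISD (log2 fold change -0.09, SE 0.145), SCO1 (log2 fold change -0.29, SE 0.222) and REXO2 (log2 fold change -0.60, SE 0.29) did not pass an unadjusted p of 0.05 either. Nor did those of Hsf2 (0.15, SE 0.108), ZBTB11 (0.24, SE 0.127), ANK2 (0.07, SE 0.0706) and UACA (0.45, SE 0.35). The same held for RASAL2 (0.06, SE 0.167), AP1M1 (-0.0003, SE 0.0785) and FBF1 (-0.06, SE 0.219). The described features held 1.2% of the level of the symbol for RASAL2, 6.79% for AP1M1 and 7.5% for FBF1. RUSC2 was the gene whose sum reversed, at 58 ± 10.3 CPM in dark contrast and 105 ± 11.7 CPM in audiovisual (log2 fold change 0.85, SE 0.425). Differences that remained in the sum were those of Khk (log2 fold change 1.87, SE 0.391), Lmln (log2 fold change 0.78, SE 0.188), Abcc8 (log2 fold change 0.39, SE 0.115), MTMR6 (log2 fold change 0.47, SE 0.149), ddb1 (log2 fold change 0.40, SE 0.188), MYH10 (log2 fold change -0.44, SE 0.109), STIP1 (log2 fold change -0.71, SE 0.179) and TRIM7 (log2 fold change -0.39, SE 0.179), each at an unadjusted p under 0.05. Every sum, here and below, includes the feature picked by this contrast, so its passing comes in part with that choice. For STIP1 the described feature held 97.5% of the level of the symbol. For ddb1 the second feature, with 64.2% of the level of the symbol, lay the other way, from 60.1 to 43.9 CPM between dark contrast and audiovisual means. The most abundant other feature also lay the other way for MYH10, from 71.9 to 77.8 CPM, and for TRIM7, from 7.77 to 10.4 CPM. It lay the same way for Khk, Lmln, Abcc8, MTMR6 and STIP1. CREB3, Sepp1, otof and MIA higher, and letm2, esyt2-b and Lgals6 lower, had 1 feature each. Over the whole table, 4316 symbols had several tested features, 562 of these had a feature at an unadjusted p under 0.05, and 29 had features past it in both directions. Of the 78 other features that the naming rule gave at an unadjusted p under 0.05, 53 share a symbol with others. The sum passed an unadjusted p of 0.05 in the same direction for 21 of the 53, differed by under 0.25 on the log2 scale for 29, and lay in the opposite direction for 2, of fn1 and pol. Values from here on are of single features unless a sum is named. Whether features with 1 symbol are splice forms, alleles or gene copies was not tested.

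**Figure D3:**
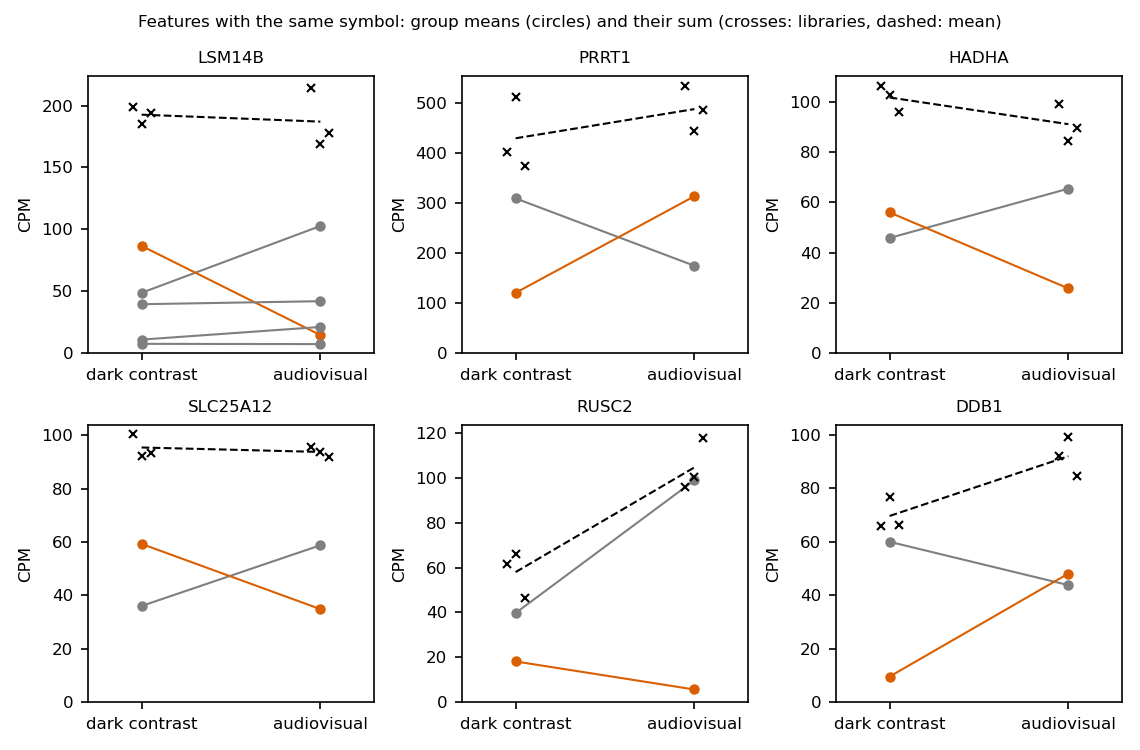
Group mean level in CPM (circles joined by lines, 1 line per feature) of all tested features of 6 symbols in dark contrast and audiovisual brains, with the described feature in orange. Crosses are the summed level in each library and the dashed line joins the means of the sums, which stay near 190 for LSM14B and near 95 for SLC25A12 while the orange features drop.

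The 5 immediate early genes examined had higher means in audiovisual than in dark contrast brains, and dark contrast 2 was the lowest of the 6 libraries in each. The transcription factor gene FOS had 17.9, 1.93 and 23.2 CPM in dark contrast and 27.9, 19.7 and 19 CPM in audiovisual (log2 fold change 0.63, with an SE of 0.589, adjusted p = 0.969 by edgeR). The groups overlapped for FOS, and 1 dark contrast library was far below the rest. For egr1, whose feature has a zinc finger and SCAN domain protein as its match in a second protein database, the values were 76.7, 24.9 and 111 CPM in dark contrast and 193, 111 and 131 CPM in audiovisual (log2 fold change 1.03, with an SE of 0.403, adjusted p = 0.935 by edgeR). NPAS4, a factor induced by calcium entry, lay at 10.2, 2.2 and 14.4 against 19.4, 12.5 and 18.8 CPM (log2 fold change 0.92, SE 0.436) and JUNB at 47, 14.7 and 71.7 against 74.2, 48.3 and 68.5 CPM (log2 fold change 0.52, SE 0.399). The groups overlapped in these too. ARC, a synaptic protein whose RNA follows activity, lay at 67, 20.5 and 75.9 against 96.9, 76.2 and 88.8 CPM (log2 fold change 0.68, SE 0.349), and there the groups just separated. Audiovisual brains were not the highest group throughout: blank contrast brains averaged 22.8 CPM for FOS, 18.8 CPM for NPAS4, 63.6 CPM for JUNB, 109 CPM for ARC and 138 CPM for egr1, beside audiovisual means of 22.2, 16.9, 63.6, 87.3 and 145 CPM. With dark contrast 2 left out, FOS stood at a log2 fold change of 0.11, and the other values were 0.63 for egr1, 0.45 for NPAS4, 0.10 for JUNB and 0.29 for ARC.

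Over the list of immediate early regulators, 13 of 23 had a log2 fold change above 0 and the median was 0.22 (0.06 without dark contrast 2 to 0.36 without dark contrast 3), with 1 higher and 0 lower at an unadjusted p under 0.05. Values in parentheses after a median, here and below, are the lowest and the highest median when 1 of the 6 libraries was left out. The share above 0, 56.5%, was close to the 54.4% of all features with a symbol. Of the slower activity-induced effectors, 21 of 32 had a log2 fold change above 0 and the median was 0.13 (0.04 without dark contrast 2 to 0.18 without dark contrast 3), with 2 higher and 0 lower at an unadjusted p under 0.05. Named among these were HOMER1, a scaffold of glutamate receptors, at 10.7, 11.2 and 13.5 against 15, 17.2 and 15.5 CPM, and CYR61, a matrix protein induced by growth factors, at 7.42, 5.44 and 6.56 against 13.1, 14.6 and 6.46 CPM. HOMER1 separated the groups, and CYR61 did not, since audiovisual 3 was as low as dark contrast.

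Lists of synaptic genes had medians slightly above the 0.03 of all features with a symbol. In the list of glutamate receptors and their scaffolds 86 of 136 had a log2 fold change above 0 and the median was 0.09 (0.06 without audiovisual 1 to 0.15 without dark contrast 2), with 4 higher and 0 lower at an unadjusted p under 0.05 and 16 higher and 2 lower without overlap, where 3.24% and 1.82% of features with a symbol passed that p and 6.74% and 3.99% did not overlap. The summed level of the list was 6012, 6269 and 6345 CPM in dark contrast and 6804, 6554 and 6709 CPM in audiovisual, so the groups did not overlap. The sum of the splicing list did not overlap either, at 13967, 13464 and 13460 against 15056, 14030 and 14092 CPM. With 43 lists and 3 libraries a side, some sums can separate by chance, so nothing is read from this. One of 8 features of DLG1, a scaffold of the PSD-95 family, lay at 19.5, 15.4 and 20.3 against 22.5, 52.7 and 61.6 CPM (log2 fold change 1.31, SE 0.342), where the 8 summed to 107 against 119.6 CPM (log2 fold change 0.16, SE 0.0975). In single features, HOMER3 lay at 21.9, 38.8 and 34.6 against 50.1, 49.4 and 44.2 CPM and the kinase CAMK2A at 295, 299.7 and 299 against 359, 377 and 401 CPM. CAMK2A was the tightest of them, with a log2 fold change of 0.35. The deposited group for ionotropic glutamate receptor activity had 31 of 50 above 0, median 0.15, 1 higher and 0 lower at an unadjusted p under 0.05. It covers the same kind of receptor genes as the list, so it is not a separate observation.

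In the list for GABA and glycine transmission 41 of 58 had a log2 fold change above 0 and the median was 0.11 (0.04 without dark contrast 1 to 0.19 without dark contrast 2), with 1 higher and 0 lower at an unadjusted p under 0.05. Of vesicle release genes 78 of 117 had a log2 fold change above 0 and the median was 0.10 (0.03 without dark contrast 1 to 0.13 without dark contrast 2), with 4 higher and 0 lower at an unadjusted p under 0.05. SLC17A6, the vesicular glutamate transporter of many subcortical neurons, lay at 15.4, 26.8 and 14.1 CPM in dark contrast and 47.3, 27.5 and 34.1 CPM in audiovisual (log2 fold change 0.95, with an SE of 0.321, adjusted p = 0.934 by edgeR). Audiovisual 1 was the highest of the 15 libraries and dark contrast 2 came within 1 CPM of audiovisual 2. Single features of UNC13A and UNC13B, which prime vesicles, lay at 40.6, 51.5 and 58.5 against 68.8, 68 and 72.5 CPM and at 2.61, 3.79 and 2.19 against 5.72, 4.2 and 5.2 CPM, with no overlap. The 10 features of UNC13A summed to 279 against 297 CPM (log2 fold change 0.09, SE 0.0808). The 5 of UNC13B summed to 75.4 against 89.1 CPM (log2 fold change 0.24, SE 0.241). Without audiovisual 1 the vesicle release median was 0.04, with 65 of 117 above 0.

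Ion channels lay on both sides. From here on, counts called higher and lower without further words are at an unadjusted p under 0.05, to be read against 3.24% and 1.82% of features with a symbol. Counts without overlap are to be read against 6.74% higher and 3.99% lower. Sodium and calcium channel genes had 70 of 101 above 0, median 0.09 (0.04 without audiovisual 1 to 0.12 without audiovisual 2), 2 higher and 1 lower, and potassium channel genes had 59 of 105 above 0, median 0.05 (0.01 without audiovisual 3 to 0.08 without dark contrast 2), 1 higher and 1 lower. Lower were CACNA1H, a T-type calcium channel, at 24.4, 18.9 and 24.6 against 14.5, 13.5 and 17.3 CPM, and Kcnj9, a G-protein-gated potassium channel, at 48.6, 25.1 and 29.2 against 17.7, 21.4 and 17.5 CPM. Higher were Cacna2d2, an auxiliary calcium channel subunit, at 43, 49.6 and 33.9 against 77.9, 59.7 and 66.8 CPM, CACNA1G at 5.65, 5.92 and 2.51 against 18.4, 4.92 and 13.5 CPM and KCNT1 at 1.01, 0.62 and 0.81 against 1.82, 0.997 and 1.73 CPM. CACNA1G and KCNT1 overlapped between the groups and the other 3 did not. Summed over all features of the symbol, log2 fold changes were -0.07 (SE 0.135) for CACNA1H and -0.84 (SE 0.245) for Kcnj9. They were 0.53 (SE 0.141) for Cacna2d2, 0.13 (SE 0.168) for CACNA1G and 0.30 (SE 0.161) for KCNT1.

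Cadherins and protocadherins, which hold neurons together by like-to-like binding, were the largest adhesion list. In it 164 of 236 had a log2 fold change above 0 and the median was 0.14 (0.08 without dark contrast 1 to 0.20 without dark contrast 2), with 7 higher and 3 lower at an unadjusted p under 0.05 and 27 higher and 4 lower without overlap. Groups did not overlap for 13.1% of the list, beside 10.7% of features with a symbol (6.74% higher and 3.99% lower). The deposited Pfam group for the cadherin domain, which overlaps with that list, had 154 of 212 above 0, median 0.16, 7 higher and 1 lower. A protocadherin gamma feature, PCDHGB2, lay at 5.48, 3.72 and 4.46 against 10.7, 9.12 and 6.04 CPM (log2 fold change 0.92, SE 0.276) and PCDHA3 at 0.927, 1.93 and 1.3 against 2.58, 2.56 and 2.33 CPM. The 15 features of PCDHGB2 summed to 333 against 375 CPM (log2 fold change 0.17, SE 0.0824). The 10 of PCDHA3 summed to 246 against 256 CPM (log2 fold change 0.06, SE 0.0866). These clustered genes share stretches of sequence, and whether reads were split between them was not tested. Axon guidance genes had 75 of 115 above 0, median 0.10 (0.04 without audiovisual 1 to 0.15 without dark contrast 2), 2 higher and 1 lower, with SLIT2, a midline repellent, lower at 31, 33.5 and 45.5 against 7.67, 23.5 and 9.68 CPM and Sema4b higher at 3.03, 2.96 and 2.19 against 4.65, 4.35 and 5.62 CPM, both without overlap. SEMA6A lay at 6.83, 12 and 9.32 against 16.4, 22.5 and 10.8 CPM and overlapped. Summed per symbol, log2 fold changes were -0.16 (SE 0.159) for SLIT2, 0.63 (SE 0.234) for Sema4b and 0.38 (SE 0.154) for SEMA6A.

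Ribosomal protein genes lay lower in audiovisual brains, and that rested on 1 dark contrast library. In the list of cytosolic ribosomal proteins 14 of 101 had a log2 fold change above 0 and the median was -0.15 (-0.24 without dark contrast 2 to -0.01 without dark contrast 1), with 1 higher and 6 lower at an unadjusted p under 0.05. The summed level was 85551, 62235 and 68158 CPM in dark contrast and 66145, 61753 and 67024 CPM in audiovisual, so dark contrast 1 alone was far above the audiovisual libraries. Without it 43 of 101 lay above 0, with a median of -0.01. RPL12 lay at 1361, 1101 and 1166 against 943, 826 and 939 CPM (log2 fold change -0.42, SE 0.143) and did not overlap, whereas RPL38 at 314, 172 and 127 against 129, 129 and 93.9 CPM did. Of mitochondrial ribosomal proteins 31 of 93 had a log2 fold change above 0 and the median was -0.09 (-0.09 without dark contrast 2 to -0.04 without audiovisual 3), with 1 higher and 5 lower at an unadjusted p under 0.05 and 2 higher and 11 lower without overlap. MRPS18B of the small subunit lay at 48.3, 32.4 and 32.7 against 28.4, 25.9 and 24.5 CPM, mrpl52 at 87.3, 54.1 and 70.7 against 50.1, 48.7 and 60.5 CPM and MRPS10 at 15.8, 13 and 9.72 against 6.67, 6.63 and 9.8 CPM. MRPS18B was the one of these with separate groups.

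Nuclear genes of oxidative phosphorylation had 35 of 103 above 0, median -0.05 (-0.09 without dark contrast 2 to 0.02 without dark contrast 1), 0 higher and 1 lower. UQCR11, a small subunit of respiratory complex III, was lower at 152, 167 and 140.4 against 104, 113 and 118 CPM (log2 fold change -0.46, SE 0.127). All 8 tested features encoded by the mitochondrial genome lay above 0, with a median of 0.31 (0.19 without audiovisual 3 to 0.44 without audiovisual 2). The mitochondrial cytochrome b gene mt-cyb was at 4451, 3792 and 4962 CPM in dark contrast and 5770.1, 4909.7 and 6203 CPM in audiovisual (log2 fold change 0.35, SE 0.141) and MT-ND1 at 6171, 4992 and 5889 CPM in dark contrast and 7316, 5951 and 8019.6 CPM in audiovisual (log2 fold change 0.32, SE 0.14). Dark contrast 2 was the lowest of the 6 libraries for both, and audiovisual 2 fell within the range of dark contrast. These genes are transcribed together from 1 small genome, so they are not independent observations.

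The length of a feature moved with its fold change. Features of up to 500 bases had a median log2 fold change of -0.14, rising through -0.03, 0.00 and 0.04 to 0.09 over 4000 bases. Without dark contrast 1 the same 5 medians ran from -0.05 to 0.05. In dark contrast 1 the median centred level, the log2 level minus the mean of that feature over the 15 libraries, fell from 0.14 in the shortest features to -0.10 in the longest. Median lengths were 810, 954 and 920 bases for ribosomal, mitochondrial ribosomal and oxidative phosphorylation genes. They were 2866 bases for glutamate genes and 2782 bases for vesicle release genes, while cadherin features had a median of 1416 bases. The part of length in these list medians was not tested.

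**Figure D4:**
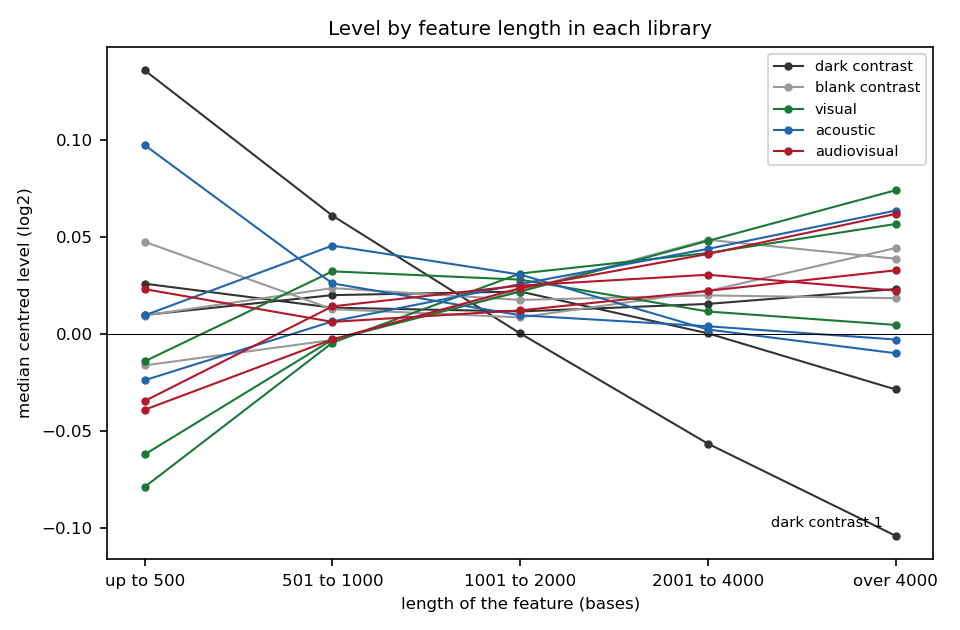
Median centred level (log2, each feature minus its mean over the 15 libraries) of features in 5 classes of length in bases, with 1 line per library coloured by group. Dark contrast 1 runs from 0.14 in features of up to 500 bases to -0.10 in those over 4000 bases, below all other libraries at the long end.

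Genes of steroid and neuropeptide signalling had medians near 0, with differences in single members. CYP19A1, the aromatase that turns androgen into oestrogen and in the brain sits largely in radial glia of fish, was at 3.46, 3.65 and 6.97 CPM in dark contrast and 9.81, 11 and 7.77 CPM in audiovisual. All 3 audiovisual libraries were above the other 12, though dark contrast 3 came near (log2 fold change 1.02, with an SE of 0.374, adjusted p = 0.934 by edgeR). Blank contrast, visual and acoustic brains averaged 5.27, 5.14 and 4.003 CPM. The list of steroid and thyroid signalling had 14 of 26 above 0, median 0.04 (-0.03 without dark contrast 3 to 0.11 without dark contrast 1), 1 higher and 0 lower. Among neuropeptides and their receptors, with 37 of 63 above 0, median 0.05 (0.00 without audiovisual 1 to 0.10 without dark contrast 3), 4 higher and 1 lower, the vasotocin-type receptor Avpr1a lay higher at 6.15, 8.47 and 6.89 against 9.18, 9.55 and 10.3 CPM, and gastrin-releasing peptide (grp) lower at 7.25, 12.7 and 6.81 against 5.16, 1.85 and 4.96 CPM (log2 fold change -1.15, SE 0.421). Both separated the groups, and the dynorphin precursor PDYN, at 37, 51 and 40.1 against 58.6, 50.2 and 52 CPM, did not. Monoamine genes had 24 of 40 above 0, median 0.05 (0.06 without audiovisual 1 to 0.11 without dark contrast 1), 1 higher and 0 lower, with the serotonin receptor Htr1d at 4.81, 5.1 and 3.73 against 7.05, 8.12 and 5.5 CPM without overlap, and cholinergic genes had 13 of 25 above 0, median 0.04 (-0.06 without audiovisual 1 to 0.11 without dark contrast 2), 0 higher and 0 lower.

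Metabolic, clock and signalling genes likewise gave a few members each. Genes of glycolysis and fructose use had 25 of 46 above 0, median 0.08 (-0.04 without dark contrast 3 to 0.09 without audiovisual 2), 4 higher and 1 lower. Beside Khk, GPI, which interconverts glucose and fructose phosphates, lay at 346, 337 and 347 against 483, 428 and 363 CPM, and GLYCTK, the kinase of glycerate, at 9.1, 15.3 and 10.5 against 4.72, 5.77 and 2.75 CPM. GPI was higher and GLYCTK lower without overlap, though GLYCTK was also low in blank contrast brains, at 2.26 CPM. Lipid and cholesterol genes had 31 of 64 above 0, median -0.03 (-0.04 without audiovisual 3 to 0.07 without audiovisual 2), 2 higher and 2 lower, with ABCA1, a cholesterol exporter, at 94.1, 94.9 and 81 against 129, 108 and 131 CPM, ACACB at 3.62, 3.31 and 2.59 against 4.65, 5.2 and 5.92 CPM and EBP at 5.14, 3.79 and 2.84 against 2.7, 1.64 and 1.67 CPM. Clock genes had 22 of 44 above 0, median -0.01 (-0.03 without dark contrast 2 to 0.00 without audiovisual 2), 1 higher and 2 lower. CRY1, a repressor of the clock, lay at 21, 28.2 and 38.7 against 58.1, 45.7 and 43.2 CPM and Nr1d1 at 16.4, 10.7 and 9.72 against 7.99, 7.84 and 8.97 CPM. CRY1 was higher and Nr1d1 lower, each without overlap, and the labels give no time of day. Summed per symbol, CRY1 stood at a log2 fold change of 0.68 (SE 0.22) and Nr1d1 at -0.14 (SE 0.156). CaMK, CREB and MAP kinase genes had 59 of 106 above 0, median 0.05 (-0.02 without audiovisual 1 to 0.06 without audiovisual 2), 4 higher and 1 lower, with map2k2 at 1.6, 1.24 and 0.486 against 2.64, 1.92 and 1.79 CPM.

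Genes that handle RNA, proteins and chromatin gave small medians. Splicing factors had 172 of 292 above 0, median 0.06 (0.02 without audiovisual 1 to 0.08 without audiovisual 2), 11 higher and 3 lower, and 20 higher and 14 lower without overlap. The share without overlap, 11.6%, was close to the 10.7% of features with a symbol. Without audiovisual 1 there were 152 of 292 above 0, with 8 higher and 7 lower. A feature of snrnp70, of the U1 particle, lay at 12, 19 and 17.6 against 37.5, 27.3 and 25.9 CPM, U2SURP at 16, 20.3 and 18.6 against 31.1, 22.7 and 27.1 CPM and Prpf38b at 18.3, 9.3 and 16 against 7.61, 6.55 and 7.95 CPM. The first pair were higher and Prpf38b lower. The 4 features of snrnp70 summed to 351 against 427 CPM (log2 fold change 0.29, SE 0.11). Chaperones and heat shock genes had 58 of 112 above 0, median 0.02 (-0.03 without dark contrast 2 to 0.03 without audiovisual 3), 2 higher and 1 lower, with CCT2, of the chaperonin that folds actin and tubulin, at 102, 109.7 and 93.6 against 116, 139 and 114 CPM beside Hsf2 and STIP1. Proteasome genes had 40 of 66 above 0, median 0.06 (0.00 without audiovisual 1 to 0.13 without dark contrast 1), 0 higher and 1 lower, with the assembly factor psmg1 at 13.8, 10.1 and 8.18 against 9.44, 3.06 and 4.24 CPM. Histone modifier genes had 74 of 142 above 0, median 0.01 (0.00 without audiovisual 3 to 0.04 without dark contrast 1), 4 higher and 1 lower, with KAT6B at 1.52, 2.2 and 0.648 against 4.09, 4.35 and 2.63 CPM, BRD8 at 2.19, 2.76 and 3.57 against 4.09, 6.55 and 5.5 CPM and smyd2-b at 31, 43.4 and 36.7 against 52.8, 50.9 and 46.8 CPM. The single features of these last 3 separated the groups and that of psmg1 did not. Summed per symbol, log2 fold changes were 0.17 (SE 0.133) for KAT6B and 0.14 (SE 0.176) for BRD8, and these sums overlapped between the groups. The sum of psmg1 stood at -0.05 (SE 0.154).

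For cell structure and division, kinesin, dynein and microtubule genes had 69 of 117 above 0, median 0.07 (-0.02 without audiovisual 1 to 0.08 without dark contrast 1), 5 higher and 4 lower. Without audiovisual 1 it was 56 of 117 above 0, so the sign of the median rested on that library. KIF5A, the motor that carries cargo along axons, lay at 5.06, 4.41 and 4.05 against 32, 39.9 and 14.6 CPM (log2 fold change 2.68, SE 0.856), Kif1b at 25.5, 36.6 and 28 against 43.8, 38.3 and 38.7 CPM and MAP4 at 64, 77.3 and 57 against 84.2, 81.9 and 93.4 CPM. All 3 were higher without overlap. The 4 features of KIF5A summed to 441 against 483 CPM (log2 fold change 0.14, SE 0.0959). Rab genes and their regulators had 76 of 129 above 0, median 0.05 (0.05 without dark contrast 1 to 0.09 without dark contrast 3), 4 higher and 1 lower, with RAB2B at 7.84, 13.7 and 9.32 against 16.8, 16.1 and 20.4 CPM, RAB37 at 8.26, 8.2 and 7.86 against 11.5, 16.7 and 13 CPM and DENND4B at 21.4, 10.5 and 15.8 against 12.5, 9.4 and 9.68 CPM. Cell cycle genes had 15 of 28 above 0, median 0.05 (-0.08 without dark contrast 3 to 0.18 without dark contrast 1), 1 higher and 0 lower, with MKI67, a marker of dividing cells, at 3.96, 7.03 and 6.32 against 8.87, 8.91 and 10.1 CPM. RAB2B, RAB37 and MKI67 separated the groups. Homeobox genes, which mark brain regions, had 53 of 106 above 0, median 0.00 (-0.11 without audiovisual 1 to 0.03 without audiovisual 3), 0 higher and 0 lower. Features derived from transposons had 73 of 168 above 0, median -0.08 (-0.10 without audiovisual 2 to 0.02 without dark contrast 3), 4 higher and 4 lower, with a pol feature at 24.3, 21.9 and 25.3 against 14.8, 8.69 and 8.31 CPM and another at 9.78, 2.96 and 3.81 against 11.8, 14.3 and 18.3 CPM.

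Markers of cell types that a whole brain sample can hold were spread as follows. Neuronal genes had 25 of 43 above 0, median 0.08 (0.03 without dark contrast 3 to 0.08 without audiovisual 1), 2 higher and 0 lower, including THY1, which was at 1.18, 1.72 and 0.972 against 41.3, 0.499 and 0.777 CPM and high in audiovisual 1 alone. Astrocyte and radial glia genes had 17 of 21 above 0, median 0.17 (0.17 without audiovisual 2 to 0.29 without audiovisual 1), 2 higher and 0 lower. The glutamate transporter SLC1A2 lay at 29.8, 41.7 and 19.3 against 67.1, 49.2 and 46.4 CPM (log2 fold change 0.84, SE 0.256) without overlap, and glutamine synthetase GLUL, the most abundant of that list, at 2288, 2278 and 1396 against 1868, 1891 and 588 CPM. Oligodendrocyte genes had 10 of 27 above 0, median -0.05 (-0.12 without dark contrast 3 to 0.02 without audiovisual 1), 0 higher and 1 lower, with Olig1, a factor of their precursors, lower at 20.5, 16.1 and 29.8 against 5.98, 15.2 and 14.6 CPM and MBP at 7016, 5669 and 6777 against 4900.1, 7011 and 6796 CPM. The 2 features of Olig1 summed to 38.6 against 33.7 CPM (log2 fold change -0.19, SE 0.157). Microglia and immune genes had 16 of 23 above 0, median 0.15 (-0.33 without audiovisual 3 to 0.32 without audiovisual 1), 2 higher and 0 lower. Audiovisual 3 was high in b2m, at 42.9, 55.9 and 81 against 17.1, 43.3 and 146 CPM. Endothelial genes had 13 of 19 above 0, median 0.19 (0.02 without audiovisual 3 to 0.21 without audiovisual 2), 1 higher and 0 lower. In that list NOTCH3, of vessel walls, lay at 37.3, 38 and 37 against 44.8, 50.8 and 54.5 CPM without overlap, and the glucose transporter SLC2A1 at 81.4, 64.8 and 70.01 against 90.2, 88.5 and 76.5 CPM. The vessel markers PECAM1, CDH5 and CLDN5 all overlapped between the groups. PECAM1 lay at 12.3, 9.09 and 5.92 against 9.12, 2.78 and 9.45 CPM. CDH5 lay at 5.48, 4.89 and 3.24 against 4.15, 6.34 and 7.89 CPM, and CLDN5 at 30.7, 12.7 and 11.2 against 17.7, 15.4 and 22.1 CPM.

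Lists for other tissues that a dissected brain can carry gave few differences. Meninges and matrix genes had 31 of 59 above 0, median 0.02 (-0.08 without audiovisual 2 to 0.13 without dark contrast 2), 2 higher and 1 lower, with fibronectin fn1 lower at 53.6, 62.5 and 51 against 31, 38.5 and 26.2 CPM, COL12A1 higher at 10.03, 11.1 and 9.56 against 32.1, 21.8 and 11.5 CPM and SPARC, the most abundant, at 1107, 919 and 918 against 1166, 1123 and 567 CPM. Ependymal and cilia genes had 33 of 65 above 0, median 0.01 (-0.09 without dark contrast 3 to 0.07 without dark contrast 1), 1 higher and 1 lower, with drc1 at 6.24, 2.07 and 4.62 against 10.5, 7.62 and 6.52 CPM, ak8 at 2.02, 4.27 and 2.35 against 1.89, 0.855 and 1.32 CPM and cfap97 at 77.6, 76.6 and 77.2 against 62.9, 78.5 and 71.9 CPM. Blood genes had 9 of 16 above 0, median 0.06 (0.00 without dark contrast 1 to 0.20 without audiovisual 3), 0 higher and 0 lower, with HBB at 646, 603 and 517 against 581, 404 and 404 CPM. Choroid plexus genes had 2 of 8 above 0, median -0.06 (-0.20 without audiovisual 2 to -0.06 without audiovisual 3), 0 higher and 0 lower, with SLC4A10 at 42.3, 44.6 and 41.2 against 44.2, 44.7 and 46.8 CPM. Muscle genes had 4 of 9 above 0, median -0.06 (-0.26 without audiovisual 1 to 0.11 without dark contrast 1), 0 higher and 0 lower, with Ryr1 at 9.02, 14.6 and 13.8 against 8.81, 13.8 and 15.4 CPM, retina and phototransduction genes had 7 of 10 above 0, median 0.12 (0.00 without audiovisual 2 to 0.28 without audiovisual 3), 0 higher and 0 lower, with gnb1 at 94.6, 137 and 70.3 against 148, 96.6 and 107 CPM, and inner ear genes had 7 of 12 above 0, median 0.11 (-0.01 without audiovisual 1 to 0.13 without audiovisual 3), 1 higher and 0 lower. No feature of the blood, choroid plexus, muscle or retina lists passed an unadjusted p of 0.05. LCN, sought as a whole symbol, is only the stem of lipocalin symbols, so its lack of a match says nothing about them. The choroid plexus marker TTR and the muscle markers ACTA1, MYLPF and TNNT3 had no tested feature under those symbols. The values of the choroid plexus list therefore say little about that tissue.

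The pituitary and endocrine list, which also holds the neuronal pentraxin receptor NPTXR, had 4 of 5 above 0, median 0.43 (0.30 without audiovisual 3 to 0.53 without audiovisual 1), 2 higher and 0 lower. The median of 0.43 was the value of NPTXR itself, which was also 1 of the 2 higher features, so it is not a value of a pituitary hormone gene. The list held the largest fold change of the named features, that of cga, the common alpha subunit of gonadotropins and thyrotropin. The level of cga was 5.99, 14.3 and 0.972 CPM in dark contrast and 654, 1.28 and 1888 CPM in audiovisual. Audiovisual 1 and 3 were far above every other library, and audiovisual 2 was as low as the dark contrast, so the groups overlapped (log2 fold change 6.89, with an SE of 1.99, adjusted p = 0.934 by edgeR, DESeq2 adjusted p = 0.0326). Leaving out 1 library at a time gave log2 fold changes of 5.52 to 7.93. The hormone precursor pomc was at 398, 5055 and 454 CPM in dark contrast and 1819.7, 54.3 and 7712 CPM in audiovisual (log2 fold change 0.70, SE 1.42), high in audiovisual 3, audiovisual 1 and dark contrast 2. The pituitary hormone genes PRL and GH had no tested feature under those symbols. How much pituitary stayed on each brain is not in the labels, and its part in these values was not tested.

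A lysosomal enzyme was high in the same libraries. MAN2B1, lysosomal alpha-mannosidase, lay at 13.7, 4.2 and 2.35 CPM in dark contrast and 110.1, 3.42 and 177 CPM in audiovisual (log2 fold change 3.84, with an SE of 1.05, adjusted p = 0.934 by edgeR, DESeq2 adjusted p = 0.0375). It was high in audiovisual 1 and 3, with audiovisual 2 within the dark contrast range, and leaving out 1 library at a time gave log2 fold changes of 3.07 to 4.87. INPP5A, an inositol phosphatase, was the other named DESeq2 call outside the sets above, at 1.85, 5.92 and 4.21 against 16.7, 15.7 and 25.3 CPM (log2 fold change 2.25, SE 0.539), and its blank contrast mean of 28.3 CPM was above the audiovisual one. The 2 features of INPP5A summed to 59 against 67.9 CPM (log2 fold change 0.21, SE 0.273), and audiovisual 2, at 34.8 CPM, was below every dark contrast library. Those of MAN2B1 summed to 22.2 against 178 CPM (log2 fold change 3.01, SE 0.822).

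**Figure D5:**
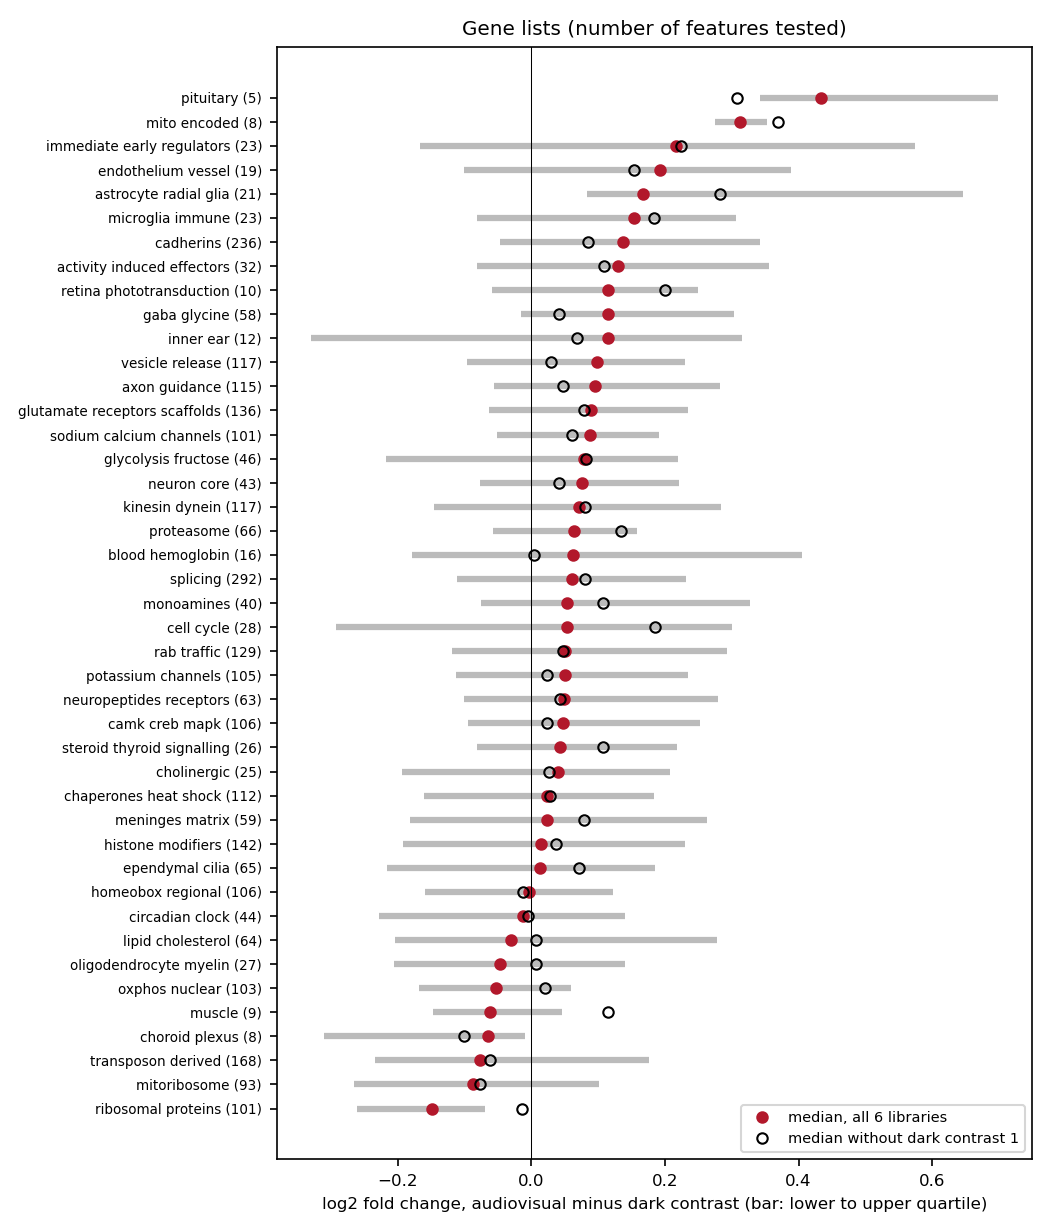
Median log2 fold change, audiovisual minus dark contrast, of the features in each of 43 gene lists (filled circles), with bars from the lower to the upper quartile of the features and open circles for the median without dark contrast 1. The ribosomal protein list moves from -0.15 to -0.01 and the cadherin list from 0.14 to 0.08 when that library is left out.

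Among groups of at least 20 tested features in the deposited annotation, which numbered 281 for biological process, 99 for cellular component, 232 for molecular function, 25 for KOG and 391 for Pfam, 4 are given here, chosen after their values were seen. Those given above, for ionotropic glutamate receptor activity and the cadherin domain, were not picked by a rule fixed beforehand either. The actin-binding calponin homology domain had 52 of 72 above 0, median 0.18, 3 higher and 0 lower at an unadjusted p under 0.05. Kinesin-like proteins had 24 of 34 above 0, median 0.17, 2 higher and 0 lower. On the lower side, translation had 162 of 388 above 0, median -0.06, 7 higher and 12 lower and structural constituents of the ribosome had 163 of 389 above 0, median -0.06, 7 higher and 12 lower. The translation and ribosome groups cover the same kind of genes as each other and as the ribosomal protein lists. Kinesin-like proteins cover the same kind of genes as the kinesin list, so these are not separate observations. The groups were not examined with a library left out. Over all features tested 49.5% lay above 0, beside the 54.4% of features with a symbol.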

How the data were processed

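Per the labels and the series' design text, total RNA was taken from whole brains kept in RNAlater, extracted with Trizol and made into libraries with the NEBNext Ultra RNA kit, and sequenced as paired reads. No assembler, aligner or counter is named by the labels. The authors deposited, for each of 15 libraries, an estimated count per feature (named a read count in the file headers, and not always whole) and an FPKM value, with annotation by protein matches. The deposited FPKM values served for the filter and for limma alternatives.

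Estimated counts were rounded to whole numbers and tested with edgeR 4.0.16 (R 4.3.3): TMM scaling, a minimum mean FPKM of 1, 5 groups in 1 quasi-likelihood fit with 10 residual degrees of freedom, Benjamini-Hochberg adjustment over 42619 features and a threshold of 0.05. Alternatives used DESeq2 1.42.0, limma 3.58.1 on log2(FPKM + 1) and on log2(FPKM + 0.1), other filters, sums per symbol, and each library left out. The edgeR procedure was also tested on simulated data. The changes put in were larger than most described here and only in features above a minimum mean count. That test therefore does not cover small changes or features with few reads. Named features were the 15 with the smallest p in each direction among those with a symbol and at least 1 CPM, those with a symbol that DESeq2 called, up to 3 members of each list with the smallest p under 0.05, 5 immediate early genes, and the most abundant member of each cell type list. The members and the 43 lists were chosen with earlier results of these data known, and lists carry no test. Depths of 12071194 to 16829356 reads set the counting precision, which is poor for features under 1 CPM. Sequences are not shown here. A few named features are not reported here.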

Additional observations from a re-analysis of the deposited data

How the results depend on the processing

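The count of features past an adjusted p of 0.05, 0 in the edgeR fit, was also 0 with median-of-ratios scaling, both limma settings, both other filters, only the 6 libraries, counts summed per symbol and the replicate block, and was 38 with DESeq2. Leaving out 1 library at a time gave 0 to 2: 1 without audiovisual 1 (LHFP, log2 fold change -1.898), 1 without audiovisual 2 (a feature without a symbol, -2.999) and 2 without audiovisual 3 (Khk and a feature without a symbol, -4.44). The features at an unadjusted p under 0.05 numbered 1891 to 2640 over all settings. With the replicate block they numbered 2218; same-numbered libraries had correlations of deviations of 0.04, -0.01 and 0.04, so the numbers were not taken to pair the libraries. RUSC2, fn1 and the pol feature with the higher level in audiovisual brains reversed when counts were summed per symbol, at 0.85, 0.085 and -0.032, and THY1 ran from -1.004 without audiovisual 1 to 4.01 without audiovisual 2; the sum brings in other features of the symbol, and THY1 was high in that library alone. Over the alternatives, 1650 values of named features kept their direction and their side of the threshold, 26 passed it, and 31 of 645 list medians moved. A list median counted as moved if it shifted by at least the SD of the list's mean centred level between libraries of a group. By that rule the ribosomal protein median without dark contrast 1 did not count as moved, although the difference of that list rested on that library. No feature passed in the main fit, so a value that shrank towards 0 also counted as kept, such as lsm14b-a summed per symbol (-0.04). The 25 DESeq2 calls with a symbol were named because they passed, so their passing came with the naming rule. These counts therefore do not measure how stable the fold changes are.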

Other observations

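Features outside the naming rule, chosen after their values were seen, shared the library pattern of cga and MAN2B1. crhbp, the binding protein of the stress peptide corticotropin-releasing hormone, lay at 12.5, 15.1 and 13.9 against 27.6, 16 and 28.6 CPM in dark contrast against audiovisual, and the other 9 libraries lay between 12.4 and 15.5 CPM. Audiovisual 1 and 3 were near 28 CPM and audiovisual 2 near the rest of the series. S100Z, a calcium-binding protein, lay at 0.422, 2.96 and 1.13 against 11.4, 0.214 and 8.61 CPM. No test was made of this pattern, since the libraries were singled out by their values.

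DESeq2 also called 13 features without a symbol, 8 of them higher in audiovisual brains and 5 lower. The most abundant, Cluster-46846.163591, lay at 37.2, 49.9 and 37.8 against 69.9, 116 and 77.2 CPM, and Cluster-46846.161636 at 20.2, 17.4 and 16.9 against 76.1, 72.7 and 53.3 CPM. Both separated the groups, and the files name no protein for either.

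Symbols with features past an unadjusted p of 0.05 in both directions included ANKRD26, a protein of the centriole, with 1 feature at 12.5 against 24.9 CPM and another at 26.7 against 12.9 CPM in dark contrast against audiovisual means.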
